A study of Mus musculus with 90 samples.

Results

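Among the 33 measured genes of the TNF and TNF receptor superfamily, regressing melanomas under PD-L1 blockade differed from growing ones in 15 (45.5%), 12 higher and 3 lower, beside 47% of all genes measured (17.2% higher and 29.8% lower). The members are all genes whose symbol in the probe annotation begins with Tnfrsf or Tnfsf, together with Tnf, Cd27, Cd40, Cd70, Fas and Lta, out of 18193 genes with a probe set. They comprise 22 receptor genes, 10 ligand genes and the antisense transcript Tnfsf13os. Fasl, Ltb and Ngfr are not part of the set.

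Ligands of this family are mostly membrane-bound trimers, some of which are shed, and they cluster their receptors on the opposing cell. Receptors with a cytoplasmic death domain, such as the products of Tnfrsf1a, Fas and Tnfrsf10b, can assemble caspase-activating complexes, whereas most others bind TRAF adaptors and signal chiefly to NF-kB, and some are decoys that bind a ligand without signalling. On T cells several members (Cd27, Tnfrsf4, Tnfrsf9 and Tnfrsf18) are costimulatory receptors, which makes the family a target of tumour immunotherapy alongside PD-1 and its ligand PD-L1.

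RNA was measured on Affymetrix arrays in 90 subcutaneous melanoma allografts, 1 array per sample. All samples carry the same labels for genotype (Hgftg;Cdk4R24C/R24C, an Hgf transgene with a mutant Cdk4) and for strain (B6.cBrd), so the transgene and the Cdk4 mutation are shared by every group. Both the antibody against PD-L1 (a mouse IgG1 carrying the D265A change) and the control IgG were given at 10 mg/kg, and PBS at 10 ml/kg. Relapse tumours (6) had regressed below measurable volume under the antibody and then grown back, after 4 to 10 doses. Stabilization tumours (3) had held their volume between consecutive measurements under the antibody. Responder tumours (27) had lost at least 5% of their volume and were taken after 2 to 12 doses. GrowthDelay tumours (2) had appeared only under the antibody. NonResponder tumours (23) had kept growing under it and were taken at times matching the Responder tumours. ControlIgG (22) and PBS (7) tumours were not given the antibody against PD-L1. Whether the arrays are of separate mice is not stated, so p-values measure only the spread between these samples, which may be technical.

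Values are log2 signals, on which a difference of 1 is a 2-fold change, and a gene with several probe sets is read from the one with the highest mean. Levels of different genes cannot be set against each other, since probe sets differ in affinity. In whole tumours, fewer cells of a type and less RNA per cell cannot be told apart. The numbers in the sample titles form distinct ranges, referred to as title series: a larger one of 53 arrays and a smaller one of 25 both hold Responder, NonResponder and Relapse tumours, and 8 ControlIgG and 4 PBS arrays stand in ranges of their own. Melanocyte markers had means between 7.40 and 11.46 per array. They were lowest in Responder 21, Responder 20, Stabilization 1, NonResponder 14 and Stabilization 2. NonResponder 14 and Responder 20 stood apart by their B cell marker means of 10.14 and 10.41, against at most 7.69 (Relapse 6) on any other array, and by high lymph node stroma markers. For some results that rest on these arrays, values without them are given too.

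Promoter windows of 8 members are shown: the 5 with the largest rise in regressing tumours (Tnfrsf1b, Cd27, Tnfrsf18, Tnfsf13b and Tnfsf10), the other TNF receptor gene Tnfrsf1a, Tnf, which rose as well, and its neighbour Lta, which did not pass the test. Each window is the 250 bases before a gene's start in the RefSeq table of build GRCm38.p6, 5′ to 3′ on the gene's own strand, and 25 of the 33 members had such an entry. Capitals mark matches, on either strand and with overlaps allowed, to an interferon gamma-activated site (GAS, TTCNNNGAA) or an interferon-stimulated response element (ISRE, here its core GAAANNGAA). The core of a kB motif (GGNNTTTCC) was searched for as well and has no match in these windows.
Tnfrsf1b, chr4:145246871-145247120, minus strand: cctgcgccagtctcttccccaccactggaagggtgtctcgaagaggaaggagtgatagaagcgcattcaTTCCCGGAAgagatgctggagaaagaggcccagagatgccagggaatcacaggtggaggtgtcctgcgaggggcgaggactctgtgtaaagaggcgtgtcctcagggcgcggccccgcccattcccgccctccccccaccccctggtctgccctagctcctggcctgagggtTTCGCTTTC
Tnfrsf1a, chr6:125349473-125349722, plus strand: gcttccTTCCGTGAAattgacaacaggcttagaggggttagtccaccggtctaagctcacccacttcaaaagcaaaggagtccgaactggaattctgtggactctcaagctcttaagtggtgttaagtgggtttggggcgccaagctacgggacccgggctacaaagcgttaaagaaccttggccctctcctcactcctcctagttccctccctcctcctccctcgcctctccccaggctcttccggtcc
Tnfsf13b, chr8:10006383-10006632, plus strand, the second of its listed starts: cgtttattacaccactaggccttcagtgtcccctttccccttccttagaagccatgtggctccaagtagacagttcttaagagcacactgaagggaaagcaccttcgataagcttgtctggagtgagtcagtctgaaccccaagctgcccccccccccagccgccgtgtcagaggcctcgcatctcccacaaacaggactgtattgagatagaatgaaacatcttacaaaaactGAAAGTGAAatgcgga
Cd27, chr6:125237028-125237277, minus strand: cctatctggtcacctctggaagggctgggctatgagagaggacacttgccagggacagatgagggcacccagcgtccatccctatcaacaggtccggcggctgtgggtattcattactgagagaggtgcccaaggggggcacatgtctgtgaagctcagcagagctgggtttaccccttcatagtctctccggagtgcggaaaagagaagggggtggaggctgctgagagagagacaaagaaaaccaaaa
Tnfrsf18, chr4:156026072-156026321, plus strand: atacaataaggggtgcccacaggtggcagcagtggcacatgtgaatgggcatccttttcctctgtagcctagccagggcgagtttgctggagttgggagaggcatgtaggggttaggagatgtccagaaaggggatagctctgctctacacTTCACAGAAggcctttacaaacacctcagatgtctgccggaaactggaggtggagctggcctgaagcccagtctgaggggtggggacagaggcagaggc
Tnfsf10, chr3:27316827-27317076, plus strand: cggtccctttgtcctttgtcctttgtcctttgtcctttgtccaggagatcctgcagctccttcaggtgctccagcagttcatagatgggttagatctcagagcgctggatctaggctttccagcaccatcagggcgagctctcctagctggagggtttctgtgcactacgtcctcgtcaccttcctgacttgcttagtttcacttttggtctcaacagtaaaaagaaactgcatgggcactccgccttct
Tnf, chr17:35202008-35202257, minus strand: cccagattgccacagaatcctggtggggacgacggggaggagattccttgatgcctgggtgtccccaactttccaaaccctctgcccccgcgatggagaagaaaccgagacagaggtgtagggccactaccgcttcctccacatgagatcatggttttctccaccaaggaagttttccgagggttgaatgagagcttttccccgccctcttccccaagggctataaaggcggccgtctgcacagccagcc
Lta, chr17:35205352-35205601, minus strand: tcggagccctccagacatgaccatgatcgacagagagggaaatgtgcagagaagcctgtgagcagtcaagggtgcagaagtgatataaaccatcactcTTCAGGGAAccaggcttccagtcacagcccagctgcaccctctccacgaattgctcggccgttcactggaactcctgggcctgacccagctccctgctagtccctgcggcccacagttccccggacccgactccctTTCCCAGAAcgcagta
Tnfrsf1b held a GAS match starting 181 bases before its start and an ISRE match starting 9 bases before it. Tnfsf13b held an ISRE match at 16 bases before its second listed start, and the window of its first start holds no match. Tnfrsf18 held a GAS match at 99 bases and Tnfrsf1a at 244 bases. Lta held 2 GAS matches, at 152 and 16 bases, whereas Tnf, Cd27 and Tnfsf10 held no match to any of these motifs. Over all 25 members with an entry, a GAS match was present in 7, an ISRE match in 6 and a kB match in 3, against 8.17%, 8.21% and 5.63% of the 26734 genes in the table. A match is a run of letters in this window and says nothing of binding.

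Responder against NonResponder compares tumours that shrank with tumours that grew under the same antibody. A member is called changed where limma's Benjamini-Hochberg adjusted p, over all 18193 genes and with the title series as a term, is under 0.05. The 15 changed members are 45.5% of the family, and 47% of all genes changed in this comparison, so the total does not set the family apart. In the upward direction 12 members (36.4%) changed, beside 17.2% of all genes, and in the downward direction 3 members (9.09%), beside 29.8% of all genes. The median log2 difference was 0.06 over the members and -0.06 over all genes. Receptors made up 9 of the 12 rises and 2 of the 3 falls, and ligands the other 3 rises and the other fall. With each array centred on its median, the same 12 members were higher and 9 were lower, beside 11.3% and 50.2% of all genes (61.5% in all), and with quantile normalization 13 were higher and 1 lower, beside 13.7% and 22.7% of all genes.

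**Figure D1:**
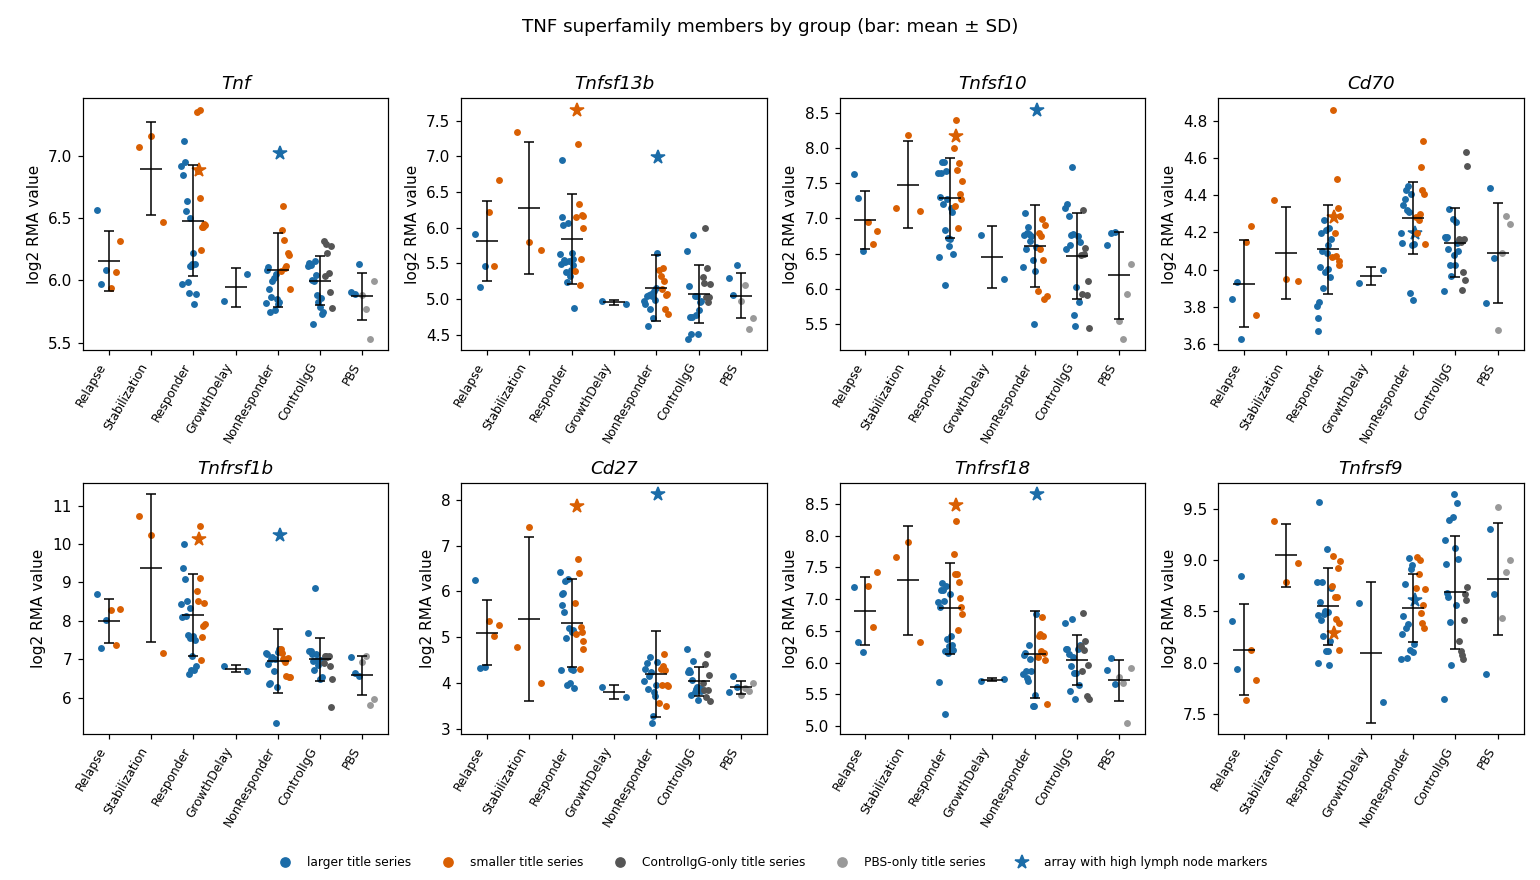
Log2 signal of 8 family members (y axis) in each of the 90 arrays, by group (x axis), with the mean ± SD as a bar. Colours give the title series and stars mark NonResponder 14 and Responder 20. Tnf lies between 5.81 and 7.37 in Responder tumours and between 5.75 and 7.02 in NonResponder tumours.

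Of the ligands, 3 were higher in Responder tumours. Tnf, the founding cytokine of the family, made mainly by macrophages and T cells, had a lowest, median and highest value of 5.81, 6.44 and 7.37 in Responder tumours, against 5.75, 6.05 and 7.02 in NonResponder tumours and 5.65, 6.02 and 6.32 in ControlIgG tumours. Its highest NonResponder value was that of NonResponder 14, and the Responder median lay above every ControlIgG value. The fitted difference from NonResponder was 0.40 (SE 0.09, adjusted p = 0.000478), and 0.44 without NonResponder 14 and Responder 20. Tnfsf13b, which encodes the B cell survival factor BAFF and is made by myeloid cells, had values of 4.88, 5.57 and 7.65 in Responder tumours, against 4.62, 5.06 and 6.99 in NonResponder tumours. Both maxima belonged to Responder 20 and NonResponder 14, and the groups overlapped. The difference was 0.69 (SE 0.14, adjusted p = 0.000304). These values are from the probe set with the highest mean, while the other probe sets of the gene differed by 0.02 (SE 0.06) and -0.10 (SE 0.05). Tnfsf10, which encodes the death ligand TRAIL and is induced by interferons, had values of 6.06, 7.27 and 8.39 in Responder tumours, against 5.51, 6.69 and 8.54 in NonResponder tumours. The Responder median exceeded most NonResponder values, with NonResponder 14 the highest array of that group. The difference was 0.68 (SE 0.16, adjusted p = 0.000983), and its other probe sets gave 0.52 (SE 0.12) and 0.20 (SE 0.11).

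Cd70 and Lta did not follow these ligands. Cd70, the ligand of Cd27, was lower, with values of 3.67, 4.09 and 4.86 in Responder tumours, against 3.84, 4.30 and 4.69 in NonResponder tumours. The groups overlapped over most of their range. Its difference of -0.17 (SE 0.06, adjusted p = 0.0173) did not pass when arrays were quantile-normalized. Lta, which encodes lymphotoxin alpha, a lymphocyte cytokine needed for lymph node formation, had values of 4.74, 5.16 and 7.14 in Responder tumours, against 4.86, 5.13 and 7.30 in NonResponder tumours. Its maxima were again Responder 20 and NonResponder 14, and the highest other array was at 5.71. The difference was 0.03 (SE 0.10, adjusted p = 0.803). Tnf and Lta are adjacent on chromosome 17.

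Both TNF receptors were higher in Responder tumours. Tnfrsf1b, the receptor TNFR2 of leukocytes and endothelium, had values of 6.61, 8.11 and 10.46 in Responder tumours, against 5.34, 6.99 and 10.24 in NonResponder tumours and 5.75, 6.98 and 8.85 in ControlIgG tumours. Most Responder arrays lay above the NonResponder median, and the single NonResponder array above 10 was NonResponder 14. Its difference of 1.20 (SE 0.24, adjusted p = 0.000261) was the largest of the family and came to 1.29 without NonResponder 14 and Responder 20. These values are from the probe set with the higher mean, and the other probe set of the gene differed by 0.10 (SE 0.09) and correlated with it at 0.491 over the 90 arrays. Tnfrsf1a, the death domain receptor TNFR1 present on most cell types, had values of 9.72, 10.39 and 10.94 in Responder tumours, against 9.50, 10.05 and 10.59 in NonResponder tumours. The groups overlapped, with the Responder median above most NonResponder values. The difference was 0.35 (SE 0.09, adjusted p = 0.00253). Tnfrsf8, which lies next to Tnfrsf1b and encodes CD30, differed by -0.10 (SE 0.05, adjusted p = 0.0954).

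Of the costimulatory receptors of T cells, Cd27, Tnfrsf18 and Tnfrsf4 were higher, while Tnfrsf9 did not pass the test. Cd27, which supports T cell survival, had values of 3.90, 5.16 and 7.86 in Responder tumours, against 3.12, 4.04 and 8.13 in NonResponder tumours and 3.61, 3.90 and 4.74 in ControlIgG tumours. The Responder median exceeded every ControlIgG array, and the Responder and NonResponder maxima were Responder 20 and NonResponder 14. The difference was 1.12 (SE 0.23, adjusted p = 0.000327), and 1.20 without these 2 arrays. Tnfrsf18, which encodes GITR, high on regulatory and activated T cells, had values of 5.19, 6.96 and 8.48 in Responder tumours, against 5.31, 6.09 and 8.65 in NonResponder tumours. Its neighbour Tnfrsf4, which encodes OX40, had values of 6.97, 7.58 and 8.74 in Responder tumours, against 7.02, 7.22 and 8.71 in NonResponder tumours. In both genes the groups overlapped and the maxima were once more Responder 20 and NonResponder 14. The differences were 0.74 (SE 0.16, adjusted p = 0.000661) for Tnfrsf18 and 0.33 (SE 0.09, adjusted p = 0.00412) for Tnfrsf4. Tnfrsf9, which encodes the activation receptor CD137, had values of 7.97, 8.50 and 9.57 in Responder tumours, against 8.04, 8.48 and 9.03 in NonResponder tumours. Its difference was 0.01 (SE 0.12, adjusted p = 0.925), and its other probe sets gave 0.01 (SE 0.15) and -0.09 (SE 0.05).

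Cd40 and Tnfrsf13b, receptors of antigen-presenting and B lineage cells, rose as well. Cd40, through which T cells activate dendritic cells, macrophages and B cells, had values of 6.24, 7.42 and 8.82 in Responder tumours, against 6.36, 6.91 and 8.73 in NonResponder tumours. The ranges nearly coincided and the medians did not. The difference was 0.40 (SE 0.12, adjusted p = 0.00765), with 0.43 and 0.47 from its other probe sets. Tnfrsf13b, which encodes TACI, a receptor for BAFF, had values of 5.23, 6.58 and 10.58 in Responder tumours, against 4.87, 5.76 and 10.05 in NonResponder tumours. Responder 20 and NonResponder 14 held these maxima, far above the other arrays, of which the highest was at 8.08. The difference was 0.65 (SE 0.23, adjusted p = 0.0173), and 0.70 without them. Tnfrsf13c and Tnfrsf17, the other B lineage receptors for BAFF and the related ligand APRIL, differed by 0.01 (SE 0.21) and -0.07 (SE 0.13), with adjusted p of 0.968 and 0.655.

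Among death receptors, Fas and Tnfrsf21 were higher and Tnfrsf10b was lower. Fas, which triggers apoptosis when bound by its ligand, had values of 4.99, 6.02 and 7.63 in Responder tumours, against 4.70, 5.62 and 7.46 in NonResponder tumours. The groups overlapped widely, and the difference was 0.34 (SE 0.12, adjusted p = 0.0183). Tnfrsf21, which encodes the death domain receptor DR6, had values of 8.23, 9.06 and 9.43 in Responder tumours, against 7.38, 8.39 and 9.46 in NonResponder tumours. Low values were more frequent in NonResponder tumours, and the difference was 0.51 (SE 0.12, adjusted p = 0.000944). Tnfrsf10b, the mouse receptor for TRAIL, had values of 4.16, 4.48 and 4.80 in Responder tumours, against 4.19, 4.59 and 5.01 in NonResponder tumours. Its fall of 0.12 on the log2 scale (SE 0.05, adjusted p = 0.0347) was lost under quantile normalization.

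Tnfrsf12a was the remaining fall. The gene encodes Fn14, the receptor for TWEAK, which is induced in injured and tumour tissue, and its values were 7.71, 10.33 and 11.28 in Responder tumours, against 8.65, 10.84 and 11.38 in NonResponder tumours. Both minima were Responder 20 and NonResponder 14. It fell by 0.45 (SE 0.16, adjusted p = 0.0222), and by 0.43 without these arrays. Tnfrsf19, a receptor of epithelial and neural crest-derived tissue also known as TROY, had values of 4.65, 6.28 and 7.71 in Responder tumours, against 3.94, 6.88 and 7.59 in NonResponder tumours. Its difference of -0.37 (SE 0.18, adjusted p = 0.0795) passed without NonResponder 14 and Responder 20, its lowest arrays in each group, at -0.45 (adjusted p = 0.0109). It also passed with array weights, median centring, the mean over probe sets or the smaller series alone.

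**Figure D2:**
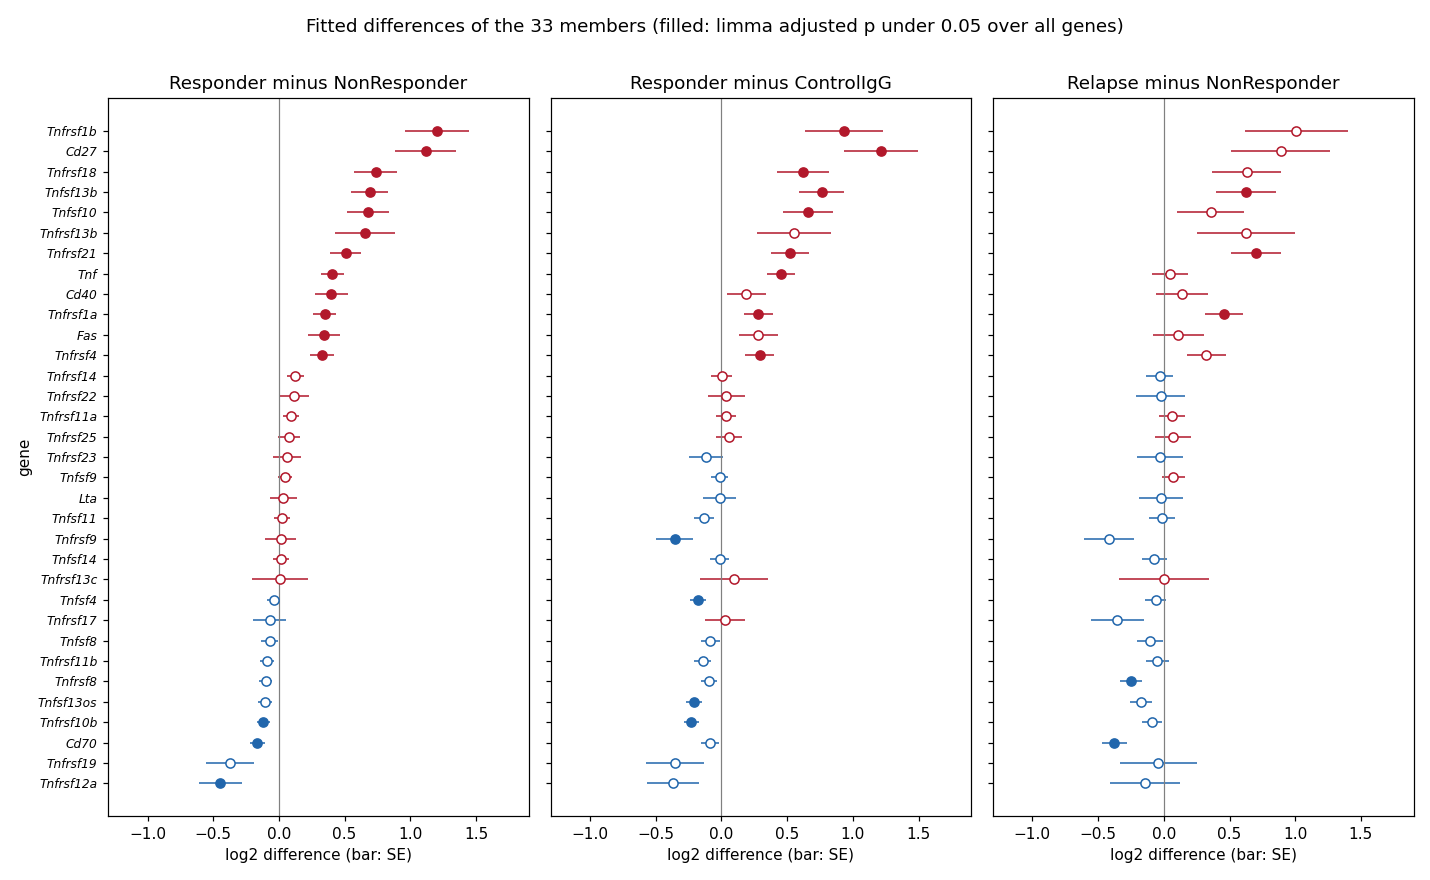
Fitted log2 difference (x axis, bar: SE) of each of the 33 members (y axis) for Responder minus NonResponder, Responder minus ControlIgG and Relapse minus NonResponder. Filled points passed limma's adjusted p over all genes: 12 higher and 3 lower, 9 higher and 4 lower, and 3 higher and 2 lower in these comparisons.

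The title series, estimated separately within the fit of all arrays, differed in their calls. In the smaller series the same 12 members were higher and 3 lower, Tnfrsf12a, Tnfrsf19 and Tnfrsf8 (all genes: 14.3% and 22.4%, or 36.7% in all). In the larger series no member passed, beside 2.63% of all genes (2.01% lower). An unadjusted p under 0.05 was found there in 11 members, beside 4837 of the 18193 genes. The larger series estimate called 7 members with each array centred on its median (16.8% of all genes) and 12 with array weights (42.6%). The mean over probe sets gave 2, beside 844 of the 18193 genes. Cd27 had a median of 5.16 in Responder tumours of the larger series against 4.09 in NonResponder tumours there. In the smaller series its medians were 5.17 in Responder and 3.95 in NonResponder tumours. For Tnf the fitted difference was 0.35 (SE 0.11) in the larger series and 0.50 (SE 0.14) in the smaller. Cd40 and Fas differed more in the smaller series: the Cd40 difference was 0.13 (SE 0.15) in the larger and 0.84 (SE 0.19) in the smaller series, and that of Fas 0.08 (SE 0.15) and 0.78 (SE 0.19). A direct test of the difference between the series called no member and no gene (limma, smallest member adjusted p = 0.32, 10 members and 2418 genes at an unadjusted p under 0.05). The larger series contains NonResponder 14, and without this array and Responder 20 it gave 10 higher and 2 lower members, beside 18.2% of all genes. Cd27 then differed by 1.14 (adjusted p = 0.00218) and Tnf by 0.43 (adjusted p = 0.00563) in the larger series.

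Responder against ControlIgG sets the regressing tumours against those given the control IgG. Of the 33 members, 13 changed (39.4%, beside 37.3% of all genes), 9 higher (all genes: 14.5%) and 4 lower (all genes: 22.8%). These and the previous comparison share the Responder arrays. The risers were Cd27 at 1.22 (SE 0.28, adjusted p = 0.0016), Tnfrsf1b at 0.93, Tnfsf13b at 0.76, Tnfsf10 at 0.66, Tnfrsf18 at 0.62, Tnfrsf21 at 0.52, Tnf at 0.45, Tnfrsf4 at 0.29 and Tnfrsf1a at 0.28. Those that fell were Tnfrsf10b (-0.23), Tnfsf13os (-0.21), the OX40 ligand gene Tnfsf4 (-0.18) and Tnfrsf9 (-0.36). The other probe set of Tnfsf13os differed by 0.03 (SE 0.09), and its fall was lost with the mean over probe sets. Of these falls only that of Tnfrsf9 stayed past the threshold under quantile normalization. With each array centred on its median, 7 were higher and 6 lower, beside 45.3% of all genes (11.1% higher and 34.2% lower), and with quantile normalization 7 were higher and 1 lower, beside 9.43% and 13.3%. The groups meet only in the larger series, where the direct difference called 6 higher and 3 lower members (27.3% of all genes were called), without Tnfrsf18, Tnfrsf4, Tnfrsf1a and Tnfrsf9. Tnfrsf9 had values of 7.97, 8.50 and 9.57 in Responder tumours, against 7.65, 8.65 and 9.64 in ControlIgG tumours, the wider range. Its direct difference was -0.37 (SE 0.15, adjusted p = 0.0559).

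NonResponder against ControlIgG called 0 members and 0 genes (limma). At an unadjusted p under 0.05 stood 838 genes and 3 members, named here after their values were seen: Tnfrsf9 (-0.37, SE 0.15), Tnfsf4 (-0.13) and the RANK ligand gene Tnfsf11 (-0.15). For Tnf the difference was 0.05 (SE 0.11) and for Cd27 0.10 (SE 0.29). ControlIgG against PBS called 0 members and 1 gene (0.0055% of all), with 240 genes but 0 members at an unadjusted p under 0.05.

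Relapse tumours, which had regrown, differed from NonResponder tumours, which had never regressed, in 5 members (15.2%, beside 20.3% of all genes), of which 3 were higher (all genes: 8.43%) and 2 lower (all genes: 11.9%). Tnfrsf21 had values of 8.80, 9.09 and 9.40 in Relapse tumours, against 7.38, 8.39 and 9.46 in NonResponder tumours, a difference of 0.70 (SE 0.19, adjusted p = 0.0147). All Relapse arrays lay above the NonResponder median. Tnfrsf1a was higher by 0.46 (SE 0.15, adjusted p = 0.0281) and Tnfsf13b by 0.63 (SE 0.23, adjusted p = 0.0439). Neither passed without the title series term or in either title series alone, and the larger series alone called no member. Tnfsf13b was also lost with median centring and with the mean over probe sets, and Tnfrsf1a under quantile normalization. Cd70 had values of 3.63, 3.89 and 4.24 in Relapse tumours, against 3.84, 4.30 and 4.69 in NonResponder tumours, all 6 Relapse arrays lying below the NonResponder median. It fell by 0.38 (SE 0.09, adjusted p = 0.00944), and Tnfrsf8 by 0.25 (SE 0.08, adjusted p = 0.0338). Both falls were lost in either title series alone and under quantile normalization. That of Tnfrsf8 was also lost without the title series term. Cd70, Tnfrsf8 and the riser Tnfsf13b had means of 4.14, 5.04 and 5.41 over all arrays, dim beside the median gene at 7.01. Cd27 had values of 4.33, 5.15 and 6.25 in Relapse tumours and differed by 0.89 (SE 0.37, adjusted p = 0.0697). Tnf had values of 5.94, 6.07 and 6.57 and differed by 0.05 (SE 0.14, adjusted p = 0.806). Centring each array on its median gave 3 higher and 4 lower members, beside 4.38% and 36% of all genes, and quantile normalization 2 higher and 0 lower, beside 1.83% and 5.46%. Without NonResponder 14 and Responder 20 the count was 11 of 33, beside 34% of all genes, and the 6 additions were Cd27, Tnfrsf13b, Tnfrsf18, Tnfrsf1b and Tnfrsf4, all higher, and Tnfrsf17, lower.

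The same tumours were then set against ControlIgG and against Responder tumours. Against ControlIgG, 6 members changed (18.2%, beside 23.6% of all genes), with Tnfrsf21 and Tnfsf13b higher (all genes: 10.5%) and Tnfrsf9, Tnfsf13os, Cd70 and Tnfrsf8 lower (all genes: 13.1%). With quantile normalization 1 was higher and 1 lower, beside 1.79% and 3.48%. Tnfrsf9 had values of 7.63, 8.03 and 8.85 in Relapse tumours, against 7.65, 8.65 and 9.64 in ControlIgG tumours. All but the highest Relapse array lay below the ControlIgG median, and the gene fell by 0.79 (SE 0.21, adjusted p = 0.0118). Within the larger series, the only one to hold both groups, its direct difference was -0.47 with 3 Relapse arrays, and that series alone called no member. Against Responder tumours no member and no gene was called (limma), with 803 genes and 3 members at an unadjusted p under 0.05. These 3 were Tnf (-0.36, SE 0.14), Tnfrsf9 (-0.43, SE 0.19) and Cd70 (-0.21, SE 0.09), each with an adjusted p of 0.909.

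Stabilization tumours differed from NonResponder tumours in 12 members (36.4%, beside 22.4% of all genes), 9 of them higher (all genes: 10.5%) and 3 lower (all genes: 11.9%), but the 3 arrays were unlike. Tnfrsf1b had 10.73, 10.22 and 7.17 in Stabilization 1, 2 and 3, against 5.34, 6.99 and 10.24 (lowest, median, highest) in NonResponder tumours. Stabilization 1 and 2 lay near or above the highest NonResponder array, Stabilization 3 near the median. The difference was 2.25 (SE 0.54, adjusted p = 0.00433). Tnf had 7.07, 7.16 and 6.47, against 5.75, 6.05 and 7.02 in NonResponder tumours, a difference of 0.66 (SE 0.19, adjusted p = 0.0132). Tnfrsf1a had 11.14, 10.60 and 10.00, a difference of 0.73 (SE 0.20, adjusted p = 0.00997). The other risers were Tnfrsf14, Tnfrsf23, Tnfsf13b, Tnfrsf22, Tnfrsf21 and Tnfsf9, and Tnfrsf8, Tnfrsf10b and Tnfrsf19 fell. All Stabilization arrays lie in the smaller series, which alone called 8 higher and 2 lower members, beside 1494 and 986 of the 18193 genes. Tnfrsf14, Tnfrsf23, Tnfsf13b, Tnfrsf22, Tnfsf9 and Tnfrsf10b did not pass there, whereas Cd40, Fas, Tnfrsf18 and Tnfsf10 passed as higher. Over all arrays, centring gave 7 higher and 4 lower, beside 9.1% and 19.7% of all genes, and quantile normalization 11 higher and 1 lower, beside 10.4% and 11.7%. Tnfrsf19 had 4.17, 5.32 and 6.83, in the same order as the melanocyte marker means of 7.72, 10.03 and 11.01, whose part in the result was not tested. Without Stabilization 1 no member passed, beside 2 of all 18193 genes. Without Stabilization 2 the count was 3 members, beside 872 genes, and without Stabilization 3 it was 19, beside 6666 genes. With the 5 arrays of lowest melanocyte markers left out, Stabilization 1 and 2 among them, Stabilization 3 alone stood for its group. Stabilization against Responder called 0 members, beside 0.319% of all genes (0.0934% lower). At an unadjusted p under 0.05 stood 6 members, beside 2402 of the 18193 genes. GrowthDelay against NonResponder, with 2 arrays, called 0 members and 0 genes (limma, 567 genes at an unadjusted p under 0.05). Tnfrsf11b, which encodes the soluble decoy osteoprotegerin, was the single member at that level, at -0.58 (SE 0.14, adjusted p = 0.315), and is named after its value was seen.

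**Figure D3:**
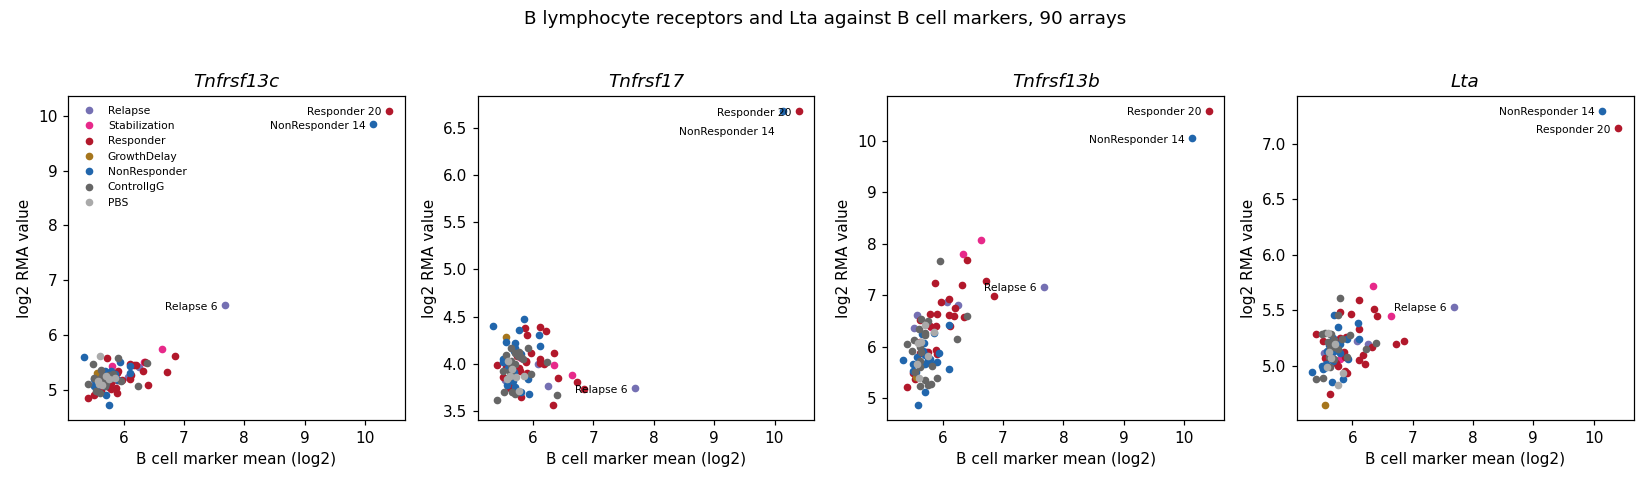
Log2 signal of Tnfrsf13c, Tnfrsf17, Tnfrsf13b and Lta (y axes) against the mean log2 signal of the B cell markers (x axis), 1 point per array for 90 arrays. NonResponder 14 and Responder 20 stand alone at B cell means of 10.14 and 10.41.

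B lineage receptors marked out the same 2 arrays. Tnfrsf13c, the main BAFF receptor of B cells, was at 10.09 in Responder 20 and 9.85 in NonResponder 14, and between 4.72 and 6.55 on the other arrays. Tnfrsf17, which encodes the plasma cell receptor BCMA, was at 6.67 and 6.68 on these arrays and between 3.56 and 4.48 on the others. Tnfrsf13b was at 10.58 and 10.05 against 4.87 to 8.08, and Lta at 7.14 and 7.30 against 4.64 to 5.71. Relapse 6, the array with the next highest B cell markers, held the highest remaining Tnfrsf13c value, 6.55. Its values for Tnfrsf17 and Lta, 3.74 and 5.53, were within the range of the other arrays.

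Marker genes of several cell types were called between Responder and NonResponder tumours, where 3138 of all 18193 genes were higher and 5414 lower. T cell markers were higher in 8 of 9 measured, macrophage markers in 8 of 8, fibroblast markers in 8 of 8 and endothelial markers in 4 of 6, whereas B cell markers were higher in 1 of 6 and melanocyte markers lower in 1 of 7. Of the shorter lists, regulatory T cell markers were higher in 2 of 4, NK cell markers in 2 of 3, neutrophil markers in 1 of 4, dendritic cell markers in 1 of 5 and adipocyte markers in 1 of 4. A single higher call in a list of 4 to 6 genes is near the share of all genes. The single lower melanocyte call is below it. The regulatory T cell mean averaged 6.41 ± 0.31 in Responder and 6.12 ± 0.26 in NonResponder tumours, and the NK cell mean 6.81 ± 0.46 and 6.38 ± 0.47 in these groups (SD, n = 27 and 23). The neutrophil mean averaged 6.19 ± 0.99 in Responder and 5.69 ± 0.64 in NonResponder tumours, and the adipocyte mean had a median of 7.10 in Responder and 6.57 in NonResponder tumours. The T cell marker mean ran from 5.66 to 9.79 in Responder tumours and from 5.38 to 9.74 in NonResponder tumours. The macrophage mean ran from 8.63 to 12.06 and from 8.53 to 12.01 in these groups, and the fibroblast mean from 6.75 to 12.36 and from 6.16 to 11.29. Their part in the members' differences was not tested.

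Within groups, each member's values, centred on the title series mean, were correlated with the T cell, macrophage and fibroblast means in Responder (27), NonResponder (23) and ControlIgG (22) arrays, 297 relations in all. A relation is counted where Pearson's r and Spearman's rho both had an adjusted permutation p under 0.05 over the 297, the smallest unadjusted p that 100000 permutations give being 1e-05. In Responder tumours 14 members correlated positively and 2 negatively with the T cell mean, 13 and 2 with the macrophage mean, and 10 and 1 with the fibroblast mean. In NonResponder tumours 11 members correlated positively and 0 negatively with the T cell mean, 2 and 1 with the macrophage mean, and 1 and 0 with the fibroblast mean. In ControlIgG tumours the positive and negative counts were 10 and 2 for the T cell mean, 8 and 5 for the macrophage mean, and 5 and 3 for the fibroblast mean. Some lost the call without the 2 arrays farthest from the median of the marker mean. The positive and negative counts that kept it were, with the T cell mean, 14 and 2 in Responder, 7 and 0 in NonResponder, and 7 and 0 in ControlIgG tumours. With the macrophage mean they were 13 and 0, 2 and 1, and 6 and 2 in these groups, and with the fibroblast mean 7 and 1, 1 and 0, and 2 and 2. As a description over all genes, an r of at least 0.5 with the T cell mean was found in 36.4% of members and 13.4% of genes in Responder tumours, 48.5% and 13.5% in NonResponder tumours, and 30.3% and 6.79% in ControlIgG tumours. With the macrophage mean it was found in 14 members and 2363 of the 18193 genes in Responder tumours, 15 and 2610 in NonResponder tumours, and 8 and 2058 in ControlIgG tumours. With the fibroblast mean the numbers were 12 and 2361, 13 and 1942, and 7 and 1869 in these groups. An r of -0.5 or below with the T cell mean had 2 members and 3429 genes, 2 and 2462, and 3 and 579 in these groups. With the macrophage mean it was 0 and 3479, 3 and 2863, and 4 and 1582. With the fibroblast mean it was 2 and 3457, 3 and 1864, and 6 and 1418. The permutation test was not run over all genes. Genes of an array share its RNA, and these shares include Responder 20 and NonResponder 14. Responder 9 and NonResponder 11 held the lowest T cell, macrophage and fibroblast means of their groups. NonResponder 14 held the highest of all these means in its group. The marker means thus partly moved together, and an r with a single list does not assign a member to a cell type.

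Cd27 followed the T cell mean. Its r was 0.976 and rho 0.971 in Responder tumours (permutation test, adjusted p = 9e-05 and 0.000135), with r at 0.973 without the 2 arrays farthest from the median, 0.97 in the larger and 0.986 in the smaller series. In NonResponder tumours r was 0.959 and rho 0.879, and r was 0.828 without the 2 farthest arrays. In ControlIgG tumours r was 0.75 and rho 0.659, and r was 0.686 without 2 arrays. Tnfrsf18 had r of 0.895, 0.929 and 0.909 with the T cell mean in Responder, NonResponder and ControlIgG tumours, and Tnfsf10 0.906, 0.86 and 0.877. All 6 of these relations stayed past the threshold without the 2 farthest arrays.

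Tnfrsf1b followed the macrophage mean, with r of 0.893 and rho of 0.904 in Responder tumours (permutation test, adjusted p = 9e-05 and 0.000135), 0.948 and 0.82 in NonResponder tumours, and 0.878 and 0.789 in ControlIgG tumours. Without the 2 farthest arrays its r was 0.878, 0.86 and 0.668 in these groups. Tnf had r of 0.759 with the T cell mean and 0.798 with the macrophage mean in Responder tumours. In NonResponder tumours its r with the T cell mean was 0.83 but 0.399 (adjusted p = 0.183) without the 2 farthest arrays, so that relation rests on those arrays. Tnfrsf21 passed in no group with the T cell or macrophage mean, its r with them lying between 0.0153 and 0.344. Tnfrsf9 ran against the T cell mean in ControlIgG tumours, with r of -0.559 and rho of -0.587 (permutation test, adjusted p = 0.0195 and 0.0193). Its r there was -0.52 without the 2 farthest arrays (adjusted p = 0.0643), a similar size that no longer passed, and r was 0.13 in Responder tumours.

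**Figure D4:**
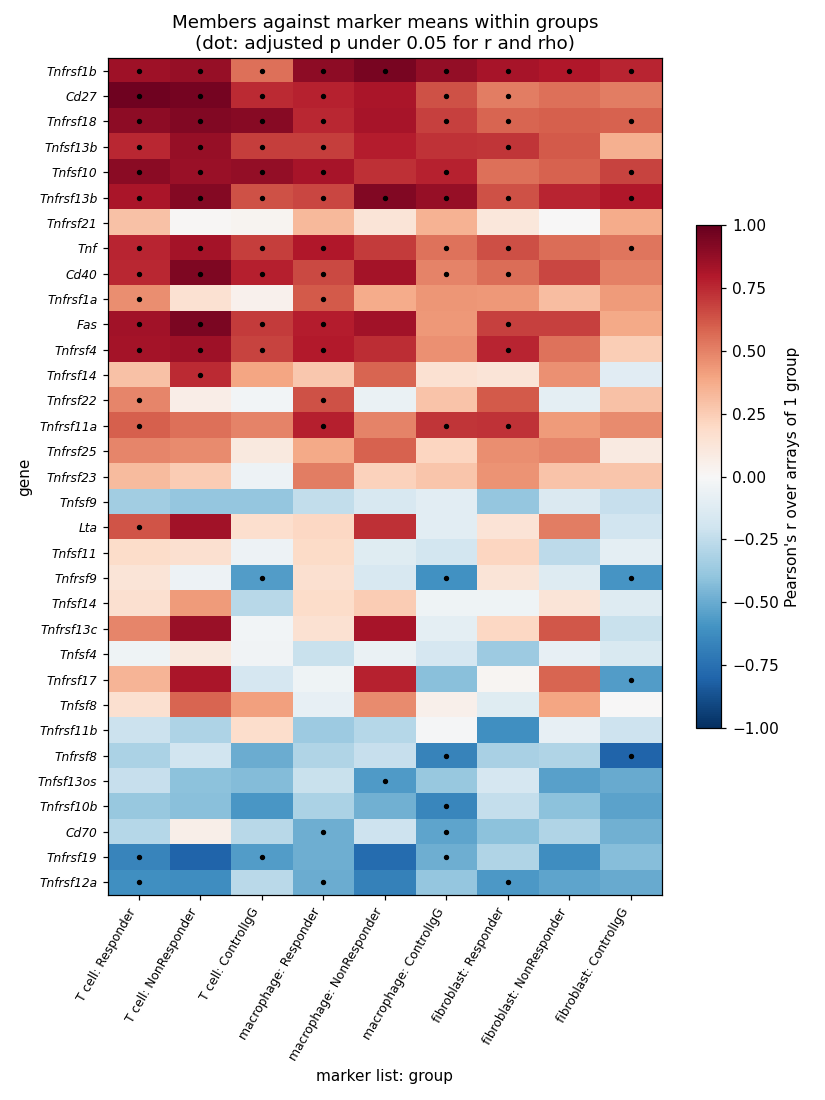
Pearson's r (colour) of each of the 33 members (y axis) with the T cell, macrophage and fibroblast marker means (x axis) over the arrays of Responder, NonResponder and ControlIgG tumours. Dots mark relations with an adjusted permutation p under 0.05 for both r and rho. In Responder tumours 14 members correlated positively and 2 negatively with the T cell mean.

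Genes that act downstream of the receptors were counted from fixed lists for Responder against NonResponder. Among TRAF and ubiquitin ligase adaptors 6 of 11 were higher and 0 lower, with a median difference of 0.24, beside 17.2% and 29.8% of all genes and a median of -0.06. The adaptor Traf1, itself an NF-kB target, differed by 0.72 (SE 0.17, adjusted p = 0.00116), the inhibitor of apoptosis gene Birc3 by 0.44 (SE 0.11), and Rnf31 and Rbck1, which encode subunits of the linear ubiquitin ligase, by 0.49 (SE 0.09) and 0.30 (SE 0.09). Of NF-kB kinases, subunits and inhibitors 6 of 12 were higher and 0 lower, with a median of 0.22. The NF-kB inhibitor gene Nfkbie differed by 0.56 (SE 0.14), the nuclear cofactor gene Bcl3 by 0.49 (SE 0.12), the subunit gene Rela by 0.42 (SE 0.13) and the kinase gene Ikbkb by 0.23 (SE 0.06).

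Feedback inhibitors of TNF signalling were higher in 6 of 7, with 0 lower and a median of 0.31. The ubiquitin-editing enzyme gene Tnfaip3 had values of 7.74, 8.89 and 10.99 in Responder tumours, against 7.66, 8.14 and 10.26 in NonResponder tumours. The ranges overlapped, and the difference was 0.72 (SE 0.15, adjusted p = 0.000266). Its partner gene Tnip1 differed by 0.37 (SE 0.09), the deubiquitinase gene Cyld by 0.27 (SE 0.06) and the caspase-8 inhibitor gene Cflar by 0.31 (SE 0.07). Death domain and caspase genes were split, with 2 of 7 higher and 2 lower and a median of 0.002. Ripk3, a kinase of necroptosis, and Daxx were higher by 0.47 (SE 0.15) and 0.27 (SE 0.09). Fadd, the adaptor of death receptors, and Casp9 were lower by values of -0.18 (SE 0.06) and -0.09 (SE 0.03).

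Of 12 textbook TNF targets, 4 were higher and 3 lower, with a median of 0.35. The adhesion molecule gene Vcam1 had values of 6.65, 9.17 and 11.31 in Responder tumours, against 5.58, 7.58 and 11.13 in NonResponder tumours, and differed by 1.43 (SE 0.29, adjusted p = 0.000263). Tnfaip2 differed by 1.20 (SE 0.22) and the adhesion molecule gene Icam1 by 0.47 (SE 0.09). The chemokine gene Ccl20 was lower, with values of 4.90, 5.07 and 5.45 in Responder tumours, against 4.92, 5.35 and 5.81 in NonResponder tumours, a difference of -0.23 (SE 0.05, adjusted p = 0.000338). In Relapse against NonResponder tumours, 3 of 11 adaptors, 3 of 12 NF-kB genes and 2 of 7 feedback inhibitors were higher with 0 lower in each, beside 8.43% of all genes, and TNF targets were higher in 1 and lower in 2 of 12.

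Tnfsf14, which encodes LIGHT, lay between 4.84 and 5.80 in Responder tumours and between 4.91 and 5.66 in NonResponder tumours. Its receptor gene Tnfrsf14, which encodes HVEM, lay between 6.15 and 6.55 in Stabilization tumours, above the NonResponder median of 5.49, and differed by 0.46 (SE 0.15, adjusted p = 0.018) from NonResponder tumours. That call was lost in the smaller series alone, which holds all Stabilization arrays. Tnfsf9, the ligand gene of Tnfrsf9, lay between 7.14 and 8.25 in Responder tumours and between 7.62 and 8.24 in NonResponder tumours. Adjacent Tnfrsf22 and Tnfrsf23, which encode mouse decoy receptors for TRAIL, were both highest among Stabilization arrays in Stabilization 1, at 7.83 and 5.75, against 6.27 and 6.38, and 4.38 and 4.38, in the other 2. Tnfrsf11a, Tnfrsf11b and Tnfsf11, which encode RANK, its decoy and its ligand, differed by 0.09, -0.09 and 0.02 between Responder and NonResponder tumours, and none passed. Tnfrsf25, Tnfsf4 and Tnfsf8 differed by 0.08, -0.04 and -0.07, and none passed either.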

How the data were processed

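RNA of 90 tumours was hybridised to Affymetrix arrays. The values in the deposited table are log2 signals from RMA (robust multi-array average), run by the authors per the submitters' processing notes, which name limma as well; versions and the arrays normalized together are not given in the sources used here. The quantile step of RMA is shared over arrays, so a shift in most transcripts would be removed.

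Of 45101 probe sets, 64 controls, 932 with several symbols and 9160 not listed in the annotation were left out, and 3 of those with several symbols name family members. The 34945 others gave 18193 genes, each by its probe set with the highest mean. The 33 members have 54 probe sets, and 15 members have several. Groups were fitted in 1 linear model over all 90 arrays with title series as a fixed term (limma 3.58.1, R 4.3.3), two-sided, with Benjamini-Hochberg adjustment over all genes. What the title series stand for is not stated in the labels. Arrays give no depth, so their number limits the precision. Array medians ran from 5.71 to 5.9, mean correlations with other arrays from 0.883 to 0.983, and no pair of arrays was identical.

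Full values are given for the members with the 16 smallest p in Responder against NonResponder, up to 3 called members with the smallest p in every other comparison, and Tnf, Lta, Fas, Cd27, Cd40 and Cd70; of each signalling list, up to 4 genes with the smallest p. Members, lists and most alternatives were chosen with earlier results of these data known. In the lists, 15 genes were not analysed here. In data simulated for Responder against NonResponder, with 200 of 18193 genes changed, the fit gave 85% recovery at a log2 change of 0.5, 98% at 1, and 7 false calls. The simulated noise was independent for each gene and array, without title series effects or outlying arrays. These rates therefore may not hold for the measured arrays. Alternatives were the treatment of title series, array scaling, probe set choice, a filter on dim genes, array weights, each title series alone and arrays left out.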

Additional observations from a re-analysis of the deposited data

Results flagged for a closer look

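In groups of 4 to 10 arrays, a highest or lowest value standing apart by Dixon's criterion was looked for in the 19 members given in full. Of 38 sets of values 3 stood out, and chance gives about 1 in 20. Tnfrsf18 was at 5.05 in PBS 6, below the other PBS tumours at 5.67 to 6.07. Tnfrsf4 was at 7.48 in PBS 4, above the other PBS tumours at 7.06 to 7.19. Lta was at 5.53 in Relapse 6, the array with the third highest B cell marker mean, above the other Relapse tumours at 5.07 to 5.22.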

How the results depend on the processing

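All 488 alternatives of the 43 called values of named members kept their direction but 1: 391 stayed past the threshold, 96 did not, and Tnfrsf19 in Stabilization against NonResponder turned to 0.19 without the 5 arrays of lowest melanocyte markers. Counts of called members moved by over 1.5 times as follows, and where no construction shows it the cause was not tested. With genes below the median gene left out, 8 members and 9097 genes remained tested. The median gene had a mean of 7.01. Dim members left out include Cd70, Tnfrsf10b and Tnfrsf8, which fell, at means of 4.14, 4.55 and 5.04. They also include Cd27, Tnfsf13b and Tnf, which rose, at 4.56, 5.41 and 6.19. Members called were then 6 for Responder against NonResponder (reported 15), beside 4398 genes, and 5 for Responder against ControlIgG (reported 13), beside 3449. Relapse gave 2 against NonResponder (reported 5) and 2 against ControlIgG (reported 6), beside 1559 and 2035 genes. Stabilization against NonResponder gave 5 (reported 12), beside 3089 genes. In the larger series alone, Responder gave 1 against NonResponder and 8 against ControlIgG, beside 550 and 5737 of the 18193 genes. Relapse gave 0 against NonResponder and 0 against ControlIgG there, beside 0 and 20 genes. The smaller series alone gave 2 for Relapse against NonResponder, beside 542 genes. Quantile normalization gave 8 for Responder against ControlIgG (4132 genes) and 2 each for Relapse against NonResponder and ControlIgG (1327 and 959 genes). Without a title series term Relapse gave 2 against NonResponder and 0 against ControlIgG, beside 1621 and 251 genes. Stabilization against Responder then gave 1 (reported 0), beside 704 genes. The mean of all probe sets gave 3 for Relapse against ControlIgG, beside 3743 genes. Array weights gave 12 and 15 for Relapse against NonResponder and ControlIgG, beside 10409 and 10542 genes. They gave 27 each for Stabilization against NonResponder and Responder, and 3 (reported 0) for ControlIgG against PBS. In these last 3 comparisons 80.2%, 71.1% and 12.5% of all genes were called. Without NonResponder 14 and Responder 20 the counts were 11 for Relapse and 21 for Stabilization against NonResponder, beside 34% and 33% of all genes. Added after seeing the data, leaving out the 5 arrays of lowest melanocyte markers gave 11 and 10 for Relapse against NonResponder and ControlIgG, beside 7366 and 6463 genes. Stabilization also moved under that setting, but it left Stabilization 3 alone in its group, so no count is given. Leaving out the 3 arrays of highest lymph node markers, also added after seeing the data, gave 9 and 3 for Relapse against NonResponder and ControlIgG. It gave 21 for Stabilization against NonResponder. No share of all genes stands beside these counts, so they are not read as results about the family. Leaving out a Stabilization array in turn gave 0 to 19 against NonResponder and 0 to 4 against Responder, beside 2 to 6666 and 1 to 2727 genes. Leaving out either GrowthDelay array leaves a lone array, assumed to vary like the other groups. Responder against NonResponder was also estimated for the larger series within the fit of all arrays (reported 0). Centring gave 7 there and the mean of all probe sets 2, beside 3053 and 844 genes. Array weights gave 12, beside 7746 genes, and each of the 3 settings that leave out arrays by their markers gave 12. Without NonResponder 14 and Responder 20 this stood beside 3320 genes, and the other such settings are given without a count over all genes. Responder against ControlIgG in the larger series (reported 9) gave 16 with array weights and 4 with quantile normalization, beside 11007 and 2149 genes. With dim genes left out it gave 1, beside 2196 of 9097 genes. Responder against NonResponder in the smaller series (reported 15) gave 6 with dim genes left out, beside 3749 of 9097 genes. Over all genes, calls for Responder against NonResponder numbered 8552, 11185 with median centring, 550 in the larger series alone and 3467 in the smaller alone. No paired analysis was possible because the labels give no replicate numbers.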
